A study of Mus musculus with 14 samples.

Results

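The ErbB ligands and receptors studied here were 10 genes of the 54532 counted in each tissue. They comprised 7 ligand genes, *Nrg1*, *Hbegf*, *Areg*, *Ereg*, *Btc*, *Tgfa* and *Egf*, and 3 receptor genes, *Egfr*, *Erbb2* and *Erbb3*. Members were taken by gene symbol from the liver table and joined by Ensembl gene ID to the fibroblast table, and all 10 were found in both. The group was chosen by the values of *Nrg1*, which were higher in senescent livers than in control livers and similar in senescent and control fibroblasts. The changes of the members between senescent and control samples are therefore given as a description, with no p-value. How many of them passed the threshold of the fit over all genes is stated only beside the share of all genes that did, and supports nothing. P-values are given for the contrast between the control groups, except for *Nrg1*, and for other genes of the pathway.

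ErbB receptors are receptor tyrosine kinases that signal as pairs. EGFR (ErbB1) binds EGF, TGFα, amphiregulin, betacellulin, epiregulin and HB-EGF, whereas ErbB3 and ErbB4 bind neuregulins. ErbB2 has no known ligand of its own and serves as the partner of the other receptors, and ErbB3 has a weak kinase and passes the signal to PI3K through its partner. The ligands are made as membrane-bound precursors, which are released by ADAM proteases, and the receptors act through RAS and ERK and through PI3K and AKT. In the liver, EGFR and ErbB3 are receptors of hepatocytes, and EGFR ligands are known for their part in regeneration after loss of tissue.

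Senescent iMEFs were compared with control iMEFs, in 3 libraries each. iMEFs are fibroblasts of mouse embryos that SV40 large T antigen keeps dividing in culture. Both groups had the genotype Trf2F/F;Rosa-CreER, in which both *Trf2* (*Terf2*) alleles are floxed and 4-hydroxytamoxifen (4HT) activates the Cre recombinase. Senescent iMEFs were collected 7 days after 4HT, and control iMEFs had vehicle. Effects of 4HT or of active Cre cannot be told apart from those of losing *Trf2*, since no library came from cells given 4HT that kept the gene. Senescent livers, from Trf2F/F;Rosa-mTmG mice, were compared with control livers, from Rosa-mTmG mice, in 4 libraries each. All of these mice had received AAV8-Tbg-Cre, a virus with Cre under the *TBG* promoter of hepatocytes, and livers were taken 6 to 7 weeks later. Rosa-mTmG is a reporter that Cre switches from tdTomato to GFP. Control livers carried no floxed *Trf2* allele, so that the floxed genotype and loss of *Trf2* cannot be told apart. The livers were used whole, so cells other than hepatocytes contributed RNA and were not targets of the virus.

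Libraries held 15364450 to 20177401 reads in genes, and a count of 3 reads in 1 library stood for 0.151 to 0.198 CPM (reads scaled to a common library size with TMM factors, within a tissue). *Terf2* was at 0.215 to 0.305 CPM in senescent iMEFs, against 37.7 to 39.2 CPM in control iMEFs, and at 2.84 to 4.91 CPM in senescent livers, against 11.3 to 13.8 CPM in control livers. Replicate 3 of senescent iMEFs stood apart, with 2.32% of its reads from the mitochondrial genome, against 0.644% and 0.853% in the other senescent iMEFs and 0.599% to 0.736% in control iMEFs. Fibroblast markers were detected in iMEFs for 9 of 9 genes, with a summed level of 9070 to 11200 CPM in senescent iMEFs and 20500 to 22400 CPM in control iMEFs. Hepatocyte markers summed to 88700 to 108000 CPM in senescent livers and 79800 to 91500 CPM in control livers, and *Alb*, the albumin gene, was at 0 in all iMEFs. In bulk RNA, fewer cells of a type and less RNA per cell cannot be told apart.

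The sequences upstream of 3 members are shown. Of these members, *Areg* and *Tgfa* were higher and *Erbb2* was lower in senescent iMEFs in every library. *Egf* was also higher in every senescent iMEF library, and its sequence is not shown. The sequences are from RefSeq, on GRCm38.p6, 5′ to 3′ on the plus strand, and end before the first annotated transcript start.
Areg, chr5:91139449-91139598: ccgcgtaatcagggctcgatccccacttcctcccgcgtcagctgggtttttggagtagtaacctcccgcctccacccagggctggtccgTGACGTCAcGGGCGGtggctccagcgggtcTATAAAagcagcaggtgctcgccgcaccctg
Tgfa, chr6:86195072-86195221: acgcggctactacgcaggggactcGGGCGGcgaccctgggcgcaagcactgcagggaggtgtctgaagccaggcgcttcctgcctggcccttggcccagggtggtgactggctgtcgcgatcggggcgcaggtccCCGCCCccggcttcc
Erbb2, chr11:98412334-98412469: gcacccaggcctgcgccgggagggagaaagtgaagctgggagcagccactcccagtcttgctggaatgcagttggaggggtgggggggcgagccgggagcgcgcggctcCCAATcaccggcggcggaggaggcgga
Capitals mark letters that match 1 of 5 motifs searched on both strands. The motifs were the cAMP response element (CRE, TGACGTCA), the GC box (GGGCGG), the TATA box (TATAAA), the CCAAT box (CCAAT) and the AP-1 site (TGACTCA), and none of the marked matches overlap. *Areg* held a CRE 61 bases before the start, a GC box and a TATA box, with a further GC box after the start, *Tgfa* held GC boxes on either strand, and *Erbb2* held a CCAAT box. Of 32851 RefSeq windows of 300 bases around a start, 1.79% held a CRE, 35.7% a GC box, 13.6% a TATA box, 37.4% a CCAAT box and 5.20% an AP-1 site. The windows of *Btc* and *Egf* held none of these letters, and that of *Egfr* held a GC box. These matches are a description of letters and not of bound sites. *Nrg1*, *Hbegf*, *Ereg* and *Erbb3* are named only.

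*Nrg1* encodes neuregulin 1, a ligand of ErbB3 and ErbB4. It lies on the minus strand of chromosome 8 (GRCm38), from 31814551 to 32884029, and gives many isoforms, which counts per gene cannot separate. *Nrg1* had 4.10, 2.11, 3.31 and 3.35 CPM in the 4 senescent livers, against 0.335, 0.586, 0.182 and 0.555 CPM in the 4 control livers. The lowest senescent liver was thus above the highest control liver, and the counts were 208 reads over the senescent livers and 29 reads over the control livers. The log2 fold change was 2.93 (SE 0.38), a fold of 7.63, and stayed between 2.70 and 3.14 when any library was left out or another method was used. In iMEFs *Nrg1* was at 32.6, 30.0 and 37.1 CPM in senescent cells, against 30.7, 30.6 and 35.2 CPM in control cells, so the groups overlapped. The log2 fold change there was 0.05 (SE 0.11). On the CPM scale of each tissue, *Nrg1* was higher in every iMEF library than in any liver.

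**Figure D1:**
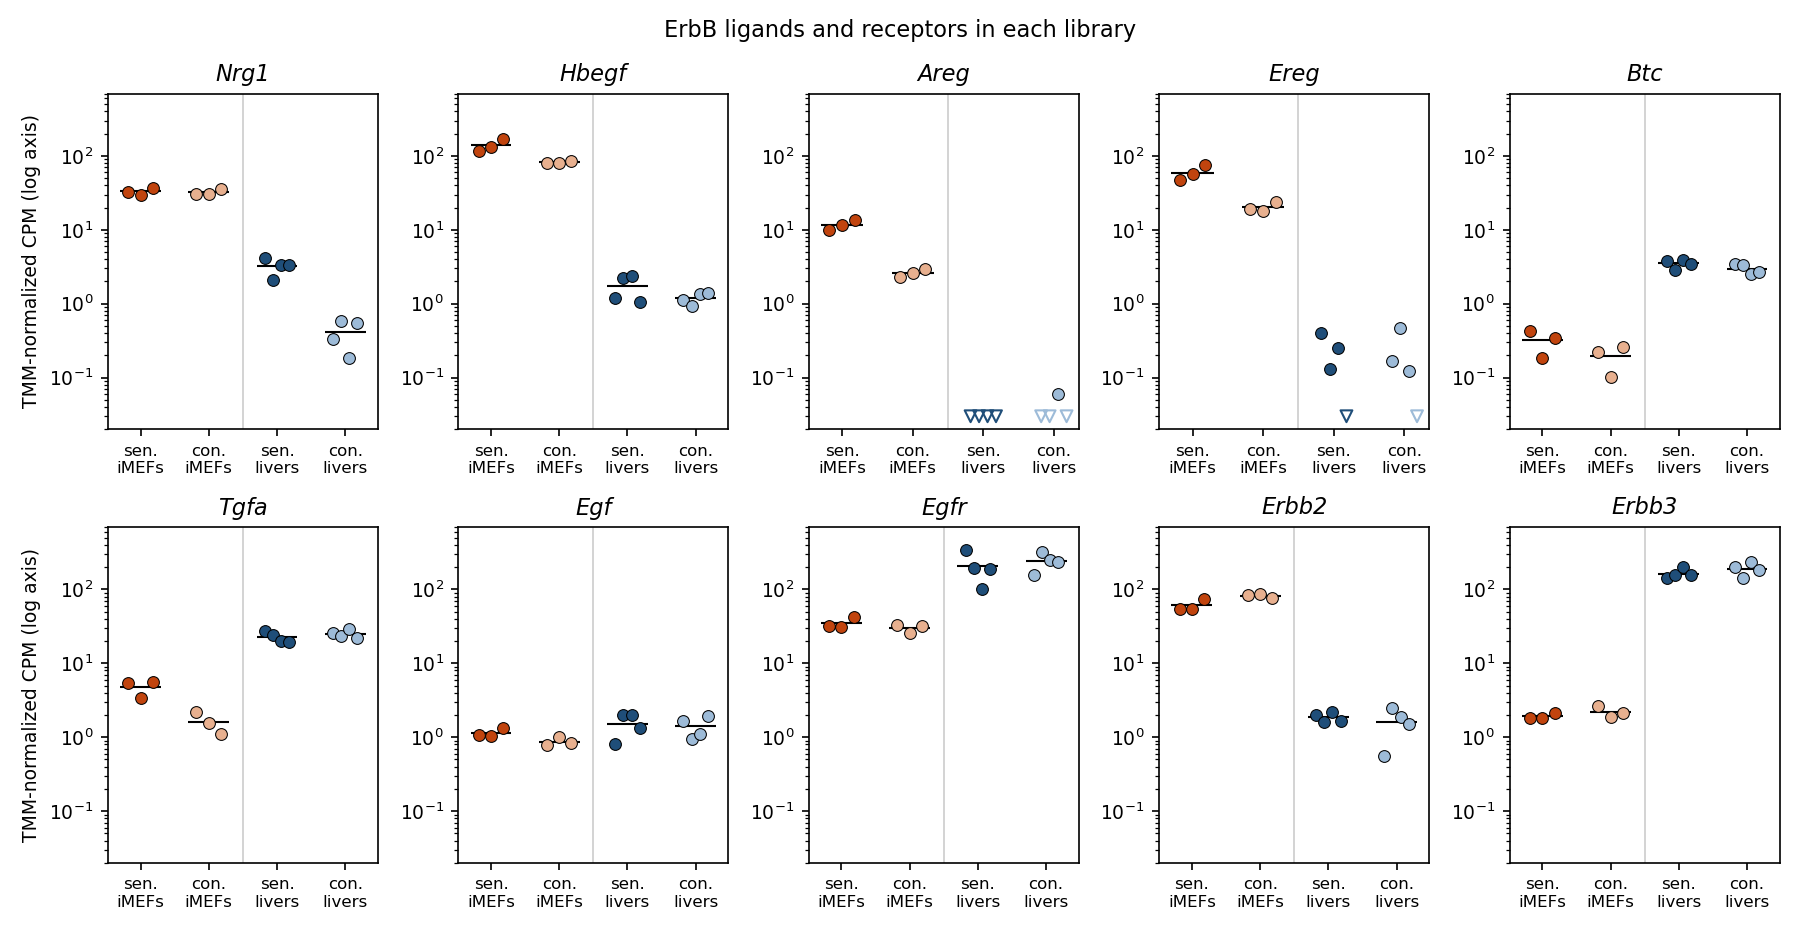
TMM-normalized CPM (log axis) of the 10 members in each of the 14 libraries, with 1 point per library, a line at the mean where no library was at 0, and open triangles at the foot for libraries with 0 reads. *Nrg1* separates the 4 senescent livers (2.11 to 4.10 CPM) from the 4 control livers (0.182 to 0.586 CPM), while *Areg*, *Ereg*, *Hbegf* and *Tgfa* separate the iMEF groups.

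Among all genes tested in livers by edgeR's quasi-likelihood method, 0.343% were called at an adjusted p of 0.05 (49 of 14270), 0.308% higher and 0.035% lower. Of the 8 members in that fit, *Nrg1* was called, which restates how the group was chosen. Its groups did not overlap, as for 4.51% of all genes, while those of the 7 other members did. Nothing is read from these counts. The median log2 fold change of the 8 members was 0.15 in livers, and that of all genes was 0.00.

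Markers of other liver cell types stood as follows beside *Nrg1*. Of 59 markers tested in livers, 0 were called by edgeR, 9 had an unadjusted p under 0.05, and DESeq2 called the fibroblast marker *Dcn*. Endothelial markers (8 genes) summed to 359 to 446 CPM in senescent livers and 330 to 385 CPM in control livers, and macrophage markers (8 genes) to 453 to 539 CPM in senescent livers and 237 to 542 CPM in control livers. Cholangiocyte markers (7 genes) summed to 99.6 to 155 CPM in senescent livers and 79.6 to 136 CPM in control livers. Most of this sum was *Spp1*, with a mean of 92.6 CPM in senescent livers and 63.6 CPM in control livers. The means of *Krt19* and *Krt7* differed the other way, that of *Krt19* at 1.80 CPM in senescent livers and 4.27 CPM in control livers. Stellate cell markers (7 genes) summed to 230 to 267 CPM in senescent livers and 198 to 243 CPM in control livers. Fibroblast markers (9 genes) summed to 1960 to 2550 CPM in senescent livers and 2190 to 2510 CPM in control livers. Most of the fibroblast sum was *Fn1*, with a mean of 1990 CPM in senescent livers and 2130 CPM in control livers. The mean of *Dcn* differed the other way, at 201 CPM in senescent livers and 158 CPM in control livers. Mesothelial markers (4 genes) were at 1.85 to 9.94 CPM in senescent livers and 5.72 to 19.3 CPM in control livers, and Schwann cell markers (4 genes) at 1.85 to 3.90 CPM in senescent livers and 1.56 to 2.16 CPM in control livers. *Sox10*, which defines Schwann cells, was at 0 in senescent livers. Lymphocyte and neutrophil markers were also in overlapping ranges, and the sum of each list overlapped between the groups. The part of these cells in the *Nrg1* values was not tested.

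*Nrg1* lies 74.2 Mb from *Terf2* on the same chromosome. Of 40 genes tested in livers within 5 Mb of *Nrg1*, 0 were called by edgeR or by DESeq2, and 1 had an unadjusted p under 0.05. On the whole of chromosome 8, 9 of 778 tested genes (1.16%) were called in livers, against 0.343% of all genes. These 9 include *Nrg1*, by which the group was chosen, and *Terf2*, the deleted gene. The part of position on the chromosome in the *Nrg1* values was not tested. The long noncoding RNA *Gm26578* shares 482 exon bases with *Nrg1* on the other strand, and had 36 reads over the 8 livers and 35 over the 6 iMEF libraries. The strand setting of the counting is not given in the sources used here, so reads of antisense partners cannot be told apart.

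*Areg* encodes amphiregulin, a ligand of EGFR, and had 9.98, 11.8 and 13.5 CPM in senescent iMEFs, against 2.32, 2.57 and 2.94 CPM in control iMEFs. Every senescent library was thus well above every control library, and the log2 fold change of 2.17 (SE 0.17) was the largest of any member in iMEFs. In livers *Areg* was at 0 reads in the 4 senescent livers, and 1 read fell in the 4 control livers. The gene was not tested there, and no fold can be given. A count of 0 allows a level of up to 0.166 to 0.198 CPM in a single liver library, for counting error only.

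*Ereg* encodes epiregulin, a ligand of EGFR and ErbB4. It was at 47.6, 56.3 and 74.3 CPM in senescent iMEFs, against 18.9, 18 and 23.5 CPM in control iMEFs. The groups lay apart, with replicate 3 the highest of the senescent libraries, and the log2 fold change was 1.56 (SE 0.15). The antisense gene *Gm19610* shares 141 exon bases with *Ereg* and had 201 reads over the iMEF libraries, whereas *Ereg* itself had 3106 reads in senescent iMEFs and 1147 in control iMEFs. In livers 13 reads of *Ereg* were counted over the senescent group and 13 over the control group, too few for the gene to be tested.

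*Tgfa* encodes TGFα, a ligand of EGFR. It had 5.42, 3.35 and 5.51 CPM in senescent iMEFs, against 2.21, 1.56 and 1.10 CPM in control iMEFs. The groups lay apart, with a log2 fold change of 1.56 (SE 0.28). Its level in livers was higher and did not follow the groups, at 27.2, 24.5, 20.1 and 19.2 CPM in senescent livers, against 26.1, 23.3, 29.4 and 22.2 CPM in control livers. The log2 fold change in livers was -0.15 (SE 0.13).

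*Hbegf* encodes HB-EGF, a heparin-binding ligand of EGFR and ErbB4. It was at 115, 131 and 172 CPM in senescent iMEFs, against 80.4, 80.3 and 84.5 CPM in control iMEFs. The senescent libraries were all higher and more spread out than the controls, and the log2 fold change was 0.77 (SE 0.12). In livers *Hbegf* was at 1.21, 2.25, 2.36 and 1.07 CPM in senescent livers, against 1.12, 0.938, 1.34 and 1.39 CPM in control livers. Replicates 2 and 3 of the senescent livers were above all controls and replicates 1 and 4 were not, and the log2 fold change was 0.52 (SE 0.35).

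*Egf*, which encodes EGF itself, was at 1.07, 1.04 and 1.32 CPM in senescent iMEFs, against 0.773, 1.01 and 0.839 CPM in control iMEFs. The groups lay close without overlapping, and the log2 fold change of 0.38 (SE 0.32) was not called. In livers *Egf* ranged from 0.809 to 1.98 CPM in senescent livers and from 0.938 to 1.94 CPM in control livers. *Btc*, which encodes betacellulin, was at 3.82, 2.84, 3.95 and 3.47 CPM in senescent livers, against 3.46, 3.34, 2.49 and 2.66 CPM in control livers. These groups overlapped, with a log2 fold change of 0.24 (SE 0.22). In iMEFs *Btc* had 17 reads over the senescent group and 11 over the control group, and was not tested.

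Among the receptors, *Erbb2* was at 54.2, 54.2 and 74.6 CPM in senescent iMEFs, against 83.9, 88.1 and 75.8 CPM in control iMEFs. Senescent replicate 3, the library that stood apart, was just below control replicate 3, and the other senescent libraries were well below all controls. The log2 fold change was -0.44 (SE 0.12). It passed the threshold of the fit, but not without control replicate 2, at -0.39, or without senescent replicate 1, at -0.35. In livers *Erbb2* was at 2.02, 1.59, 2.17 and 1.64 CPM in senescent livers, against 0.558, 2.52, 1.89 and 1.5 CPM in control livers, and the spread of the controls covered the senescent values.

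*Egfr* was at 32.2, 30.6 and 42.6 CPM in senescent iMEFs, against 33.1, 25.7 and 31.6 CPM in control iMEFs, with a log2 fold change of 0.22 (SE 0.14). In livers it was at 346, 196, 102 and 189 CPM in senescent livers, against 159, 321, 251 and 238 CPM in control livers. The highest senescent liver was 3.39 times the lowest one, the groups overlapped, and the log2 fold change was -0.22 (SE 0.30). *Erbb3* was at 143, 156, 200 and 157 CPM in senescent livers, against 199, 143, 236 and 186 CPM in control livers, with a log2 fold change of -0.22 (SE 0.15). In iMEFs it was low, at 1.82 to 2.12 CPM in senescent iMEFs and 1.87 to 2.65 CPM in control iMEFs.

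**Figure D2:**
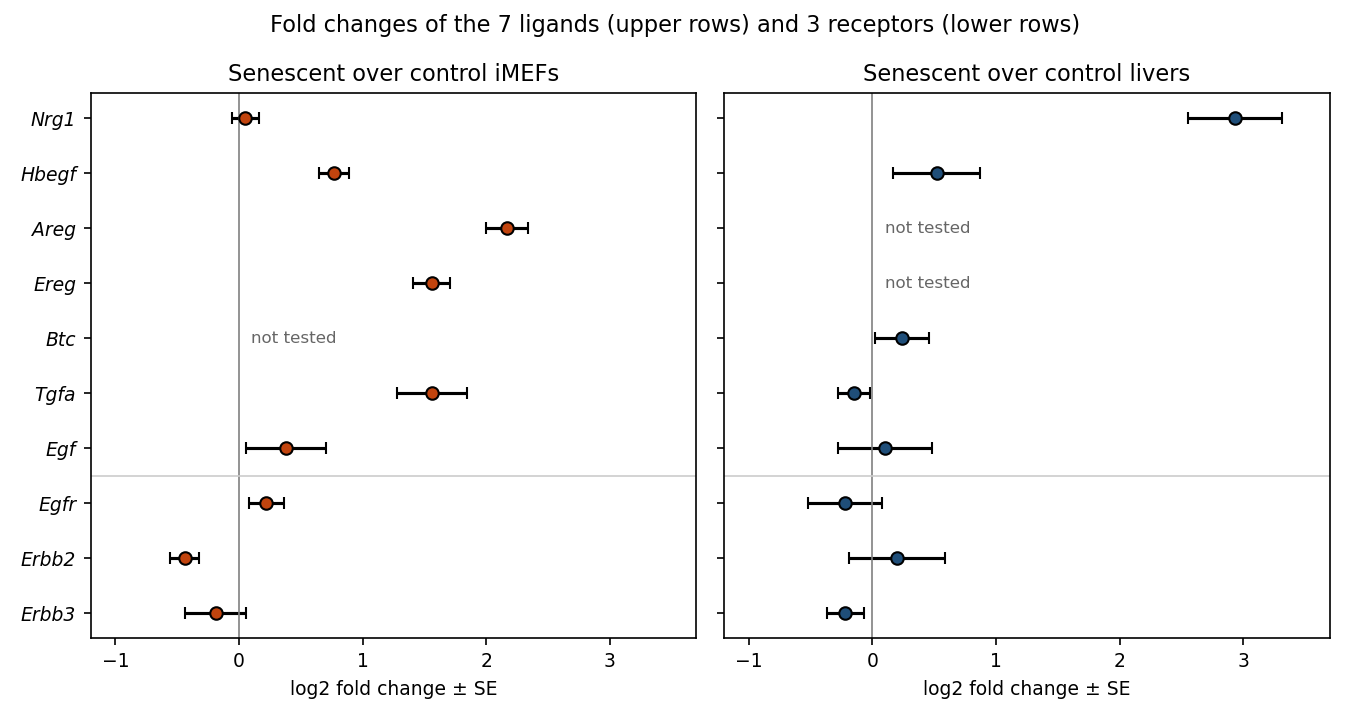
Log2 fold change (horizontal axis) with its SE (bars) of each member, senescent over control iMEFs on the left (n = 3 each) and senescent over control livers on the right (n = 4 each). *Areg* at 2.17, *Ereg* and *Tgfa* at 1.56 and *Hbegf* at 0.77 lie to the right in iMEFs, where *Nrg1* is at 0.05, and *Nrg1* at 2.93 lies to the right in livers.

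Of the 9 members tested in iMEFs, 4 were called higher (*Areg*, *Ereg*, *Tgfa* and *Hbegf*), 1 was called lower (*Erbb2*) and 4 were not called. Among all genes tested in iMEFs, 39.8% were called, 18.6% higher and 21.2% lower. The groups did not overlap for 6 of the 9 members, and for 50.6% of all genes. The 9 members are few and were chosen with earlier results of these data known, so nothing is read from these counts. The members had a median log2 fold change of 0.38, against 0.00 for all genes. The fibroblast markers moved in the same libraries, with 6 of 9 called lower in senescent iMEFs and 1 called higher, and their part in these changes was not tested.

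*Areg*, *Ereg* and *Btc* are neighbours on chromosome 5, where they and *Epgn*, the gene of epigen, span 376 kb. Among these neighbours *Areg* and *Ereg* were higher in senescent iMEFs, while *Btc* was too low to be tested and *Epgn* had 9 reads over the senescent iMEFs and 7 over the control iMEFs. In livers *Btc* was the gene of the cluster with reads enough to be tested, and *Epgn* had 0 reads.

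The other members of the family are 4 ligand genes and the receptor gene *Erbb4*. *Nrg4* encodes a neuregulin that binds ErbB4. It was at 7.17, 4.96, 6.94 and 8.71 CPM in senescent livers, against 4.74, 4.28, 4.8 and 5.44 CPM in control livers. Of the senescent livers, 3 were above all controls, and the log2 fold change was 0.53 (SE 0.20, adjusted p = 0.551). *Nrg4* shares 368 exon bases with *Fbxo22*, a gene of the other strand with 6565 reads in livers. *Erbb4* was at 3.76, 1.78, 6.05 and 3.16 CPM in senescent livers, against 5.97, 6.51, 4.20 and 4.99 CPM in control livers. The groups overlapped through senescent replicate 3, and the log2 fold change was -0.55 (SE 0.31, adjusted p = 0.729). No read of *Erbb4* was counted in iMEFs, no read of *Nrg3* in any library, and *Nrg2* had 4 reads in senescent livers, 3 in control livers, 9 in senescent iMEFs and 7 in control iMEFs.

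To compare genes with each other, CPM were divided by exon length (GENCODE M21) to give FPKM. This length merges all annotated exons of a gene, 10351 bases for *Nrg1* and 1215 for *Areg*. For a gene of many isoforms such as *Nrg1* it can exceed the transcripts present, which would lower its FPKM, rank and share. In control livers the order of levels was *Erbb3* (31.8 ± 6.38 FPKM), *Egfr* (21.4 ± 5.84), *Tgfa* (3.89 ± 0.497), *Nrg4* (0.793 ± 0.0784) and *Btc* (0.661 ± 0.106), followed by *Erbb4*, *Erbb2*, *Hbegf*, *Egf*, *Ereg* and *Nrg1* (SD, n = 4). *Erbb3* and *Egfr* overlapped in their ranges, and both were above *Tgfa* in every library. *Nrg1* had 0.311 ± 0.0795 FPKM in senescent livers and 0.0401 ± 0.0185 FPKM in control livers (SD, n = 4 each). This placed it 8th of the 15 family genes in senescent livers, in ranges that overlapped *Erbb2* and *Erbb4*, and 11th in control livers.

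In control iMEFs the highest levels were those of *Hbegf* at 16.9 FPKM and *Erbb2* at 15.9 FPKM, whose ranges overlapped. *Ereg* followed at 4.88 FPKM, then *Nrg1* at 3.11, *Egfr* at 2.66 and *Areg* at 2.15. In senescent iMEFs *Hbegf* was at 28.8 FPKM, *Ereg* at 14.4, *Erbb2* at 11.7, *Areg* at 9.68, *Nrg1* at 3.21, *Egfr* at 3.10 and *Tgfa* at 0.733. As a share of the summed ligand level, *Nrg1* made up 5.69% in senescent iMEFs and 11.2% in control iMEFs. In livers its share was 4.92% in senescent livers (3.36% to 5.64%) and 0.708% in control livers (0.276% to 1.03%). *Tgfa* made up 55.5% of the ligand level in senescent livers and 66.6% in control livers. Of the summed receptor level, *Erbb2* made up 77.4% in senescent iMEFs and 83.9% in control iMEFs, and 0.774% in senescent livers and 0.565% in control livers.

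**Figure D3:**
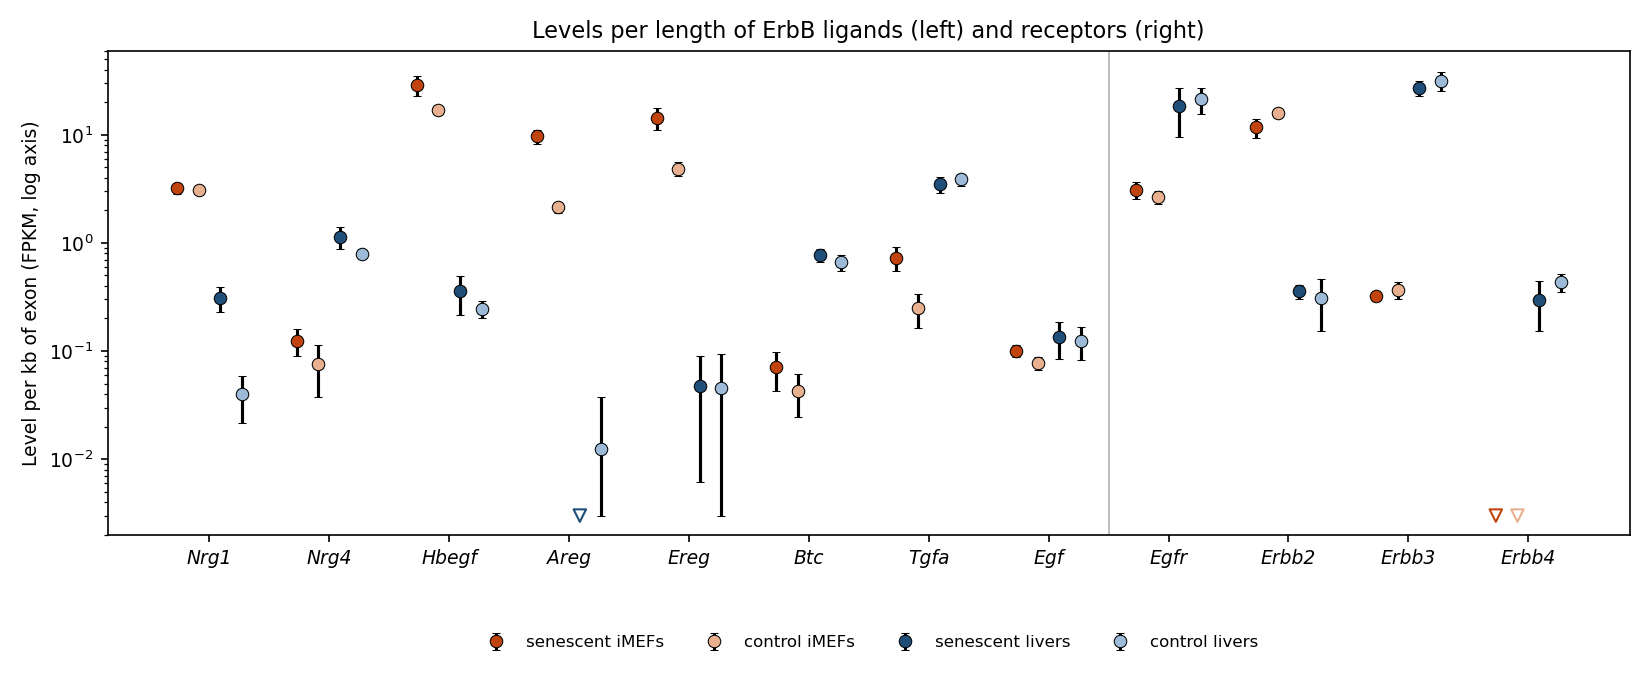
Mean level per kb of exon (FPKM, log axis) with SD of the members, *Nrg4* and *Erbb4* in the 4 groups (n = 3 per iMEF group, n = 4 per liver group); bars are clipped at the foot of the axis and triangles mark groups with 0 reads. *Erbb3*, *Egfr* and *Tgfa* are highest in livers, and *Hbegf*, *Erbb2*, *Ereg*, *Nrg1* and *Areg* in iMEFs.

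The levels in control livers were compared with those in control iMEFs. The choice of the group used the control values of *Nrg1*, which is given here with no p-value, and not this contrast for the other members. Tissue, culture, immortalization, genotype and batch cannot be told apart in it. Among all genes 85.5% were called, 44.8% higher in control livers and 40.7% lower, so a call by itself says little. The 9 members other than *Nrg1* were all called, 5 higher and 4 lower, *Egf* only with scaling factors. *Erbb3* had the largest difference among the members, with 191 ± 38.4 CPM in control livers (SD, n = 4) and 2.21 ± 0.403 CPM in control iMEFs (SD, n = 3), a log2 fold change of 7.32 (SE 0.22, adjusted p = 8.83e-11). *Tgfa* was higher by 4.84 (SE 0.21, adjusted p = 2.14e-09), *Btc* by 4.77 (SE 0.38, adjusted p = 3.96e-07) and *Egfr* by 3.89 (SE 0.23, adjusted p = 2.4e-08). *Erbb4*, which is not a member, had 377 reads in control livers and 0 in control iMEFs. Against a floor of 3 reads over the control iMEFs it was at least 104.8-fold higher in control livers by library totals, and at least 190.1-fold higher with scaling factors.

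On the other side, the log2 fold change of control livers over control iMEFs was -5.37 for *Nrg1* (SE 0.24), with 0.415 ± 0.191 CPM in control livers and 32.1 ± 2.65 CPM in control iMEFs. It was -5.83 for *Ereg* (SE 0.42, adjusted p = 1.49e-07), -5.21 for *Hbegf* (SE 0.13, adjusted p = 2.88e-11) and -4.8 for *Erbb2* (SE 0.27, adjusted p = 1.57e-08). *Areg* had 1 read in control livers and 149 reads in control iMEFs, which gives a ratio of 0.0102 with scaling factors (counting interval 0.000255 to 0.0574). Among the receptors, *Erbb3* and *Egfr* were higher in control livers and *Erbb2* was lower.

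The scaling of 2 such unlike tissues moved the fold changes of all genes. TMM factors raised the log2 fold changes by a median of 0.86 over those from library totals, with a median over all genes of 0.11 with the factors and -0.75 without. With library totals alone, a setting added after seeing the data, 8 of the 9 members other than *Nrg1* were still called. *Egf* was not, with a log2 fold change of 1.57 (SE 0.36, adjusted p = 0.00178) with the factors and 0.72 (SE 0.36, adjusted p = 0.0836) without. Its CPM overlapped, at 0.938 to 1.94 in control livers and 0.773 to 1.01 in control iMEFs.

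The wider pathway was followed in 91 other genes in 6 lists. In iMEFs 86 of them were tested, 24 were higher and 26 lower in senescent iMEFs, and 36 were not called. These are 58.1% called, 27.9% higher and 30.2% lower, against 39.8% called, 18.6% higher and 21.2% lower over all genes. The lists were chosen with earlier results of these data known, so nothing is read from these shares. The genes of the pathway had a median log2 fold change of 0.01, against 0.00 for all genes. In livers 83 were tested, and 0 were called by edgeR (against 0.343% of all genes), DESeq2 or limma-voom, and 10 had an unadjusted p under 0.05. Without the filter on low counts, *Dusp6* was called higher in senescent livers.

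The list of 16 transcripts known to be induced by ERK signalling had 10 members higher and 6 lower in senescent iMEFs, with a median log2 fold change of 0.68. The counts of this list and those that follow stand against 18.6% of all genes called higher and 21.2% called lower. Nothing is read from them, since the lists were chosen with earlier results known. *Myc*, which encodes a growth-promoting transcription factor, had 168 ± 9.07 CPM in senescent iMEFs and 61.0 ± 3.95 CPM in control iMEFs (SD, n = 3 each), and its log2 fold change was 1.46 (SE 0.08, adjusted p = 7.65e-08). *Fosl1*, which encodes the AP-1 subunit FRA1, rose by 1.52 (SE 0.10, adjusted p = 3.24e-07), and *Ccnd1*, which encodes cyclin D1, by 1.02 (SE 0.08, adjusted p = 9.1e-07). The genes that were lower were *Fos*, *Junb*, *Egr1*, *Egr2*, *Egr3* and *Ier2*, which are immediate early genes, with log2 fold changes of -1.52 to -0.27. Of this list 12 were tested in livers, with a median of 0.32. *Myc* there had a log2 fold change of 1.12 (SE 0.44, adjusted p = 0.578), which was 0.27 without senescent livers replicate 3. *Ccnd1* had one of 0.59 (SE 0.21, adjusted p = 0.522).

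Of the 13 feedback genes of the ERK pathway, 6 were higher and 2 lower in senescent iMEFs, with a median of 0.26. *Dusp4* and *Dusp6* encode phosphatases of ERK and *Spry2* encodes a Sprouty inhibitor. *Dusp4* was at 11.6 ± 0.943 CPM in senescent iMEFs and 2.41 ± 0.241 CPM in control iMEFs, a log2 fold change of 2.27 (SE 0.16, adjusted p = 4.69e-07). *Dusp6* rose by 1.51 (SE 0.12, adjusted p = 1.37e-06) and *Spry2* by 1.24 (SE 0.10, adjusted p = 1.35e-06), while *Spry1* and *Il17rd* were lower. In livers *Dusp6* was at 101 ± 24.7 CPM in senescent livers and 62.4 ± 17.8 CPM in control livers (SD, n = 4 each), in overlapping ranges, with a log2 fold change of 0.69 (SE 0.21, adjusted p = 0.425).

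Upstream of these, 32 genes of adaptors, RAS to ERK and PI3K to AKT gave 3 higher and 12 lower in senescent iMEFs, with a median of -0.16. *Pik3r2*, a regulatory subunit of PI3K, was at 91.6 ± 1.61 CPM in senescent iMEFs and 173 ± 15 CPM in control iMEFs, a log2 fold change of -0.91 (SE 0.08, adjusted p = 3.65e-06). *Stat3*, a transcription factor activated downstream of EGFR, had a log2 fold change of -0.67 (SE 0.07, adjusted p = 1.52e-05), and *Pik3cb*, a catalytic subunit of PI3K, one of 0.70 (SE 0.08, adjusted p = 3.85e-05). Of the 12 shedding genes, 2 were higher and 4 lower in senescent iMEFs. *Adam12* and *Bace1*, which encode membrane proteases, had log2 fold changes of -0.62 (SE 0.09, adjusted p = 0.000214) and -0.70 (SE 0.12, adjusted p = 0.00065), and *Adam8* had one of 0.94 (SE 0.20, adjusted p = 0.00296). *Adam17*, the main sheddase of several EGFR ligands, had a log2 fold change of -0.15 (SE 0.11, adjusted p = 0.303).

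Of the 12 tested receptor inhibitors and turnover genes, 3 were higher and 2 lower. *Cblb*, a ubiquitin ligase of receptor tyrosine kinases, had a log2 fold change of -0.65 (SE 0.10, adjusted p = 0.000262). *Ptprj*, a receptor-type tyrosine phosphatase, rose by 0.64 (SE 0.11, adjusted p = 0.000889) and *Socs5*, a SOCS-box protein, by 0.40 (SE 0.08, adjusted p = 0.00122).

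**Figure D4:**
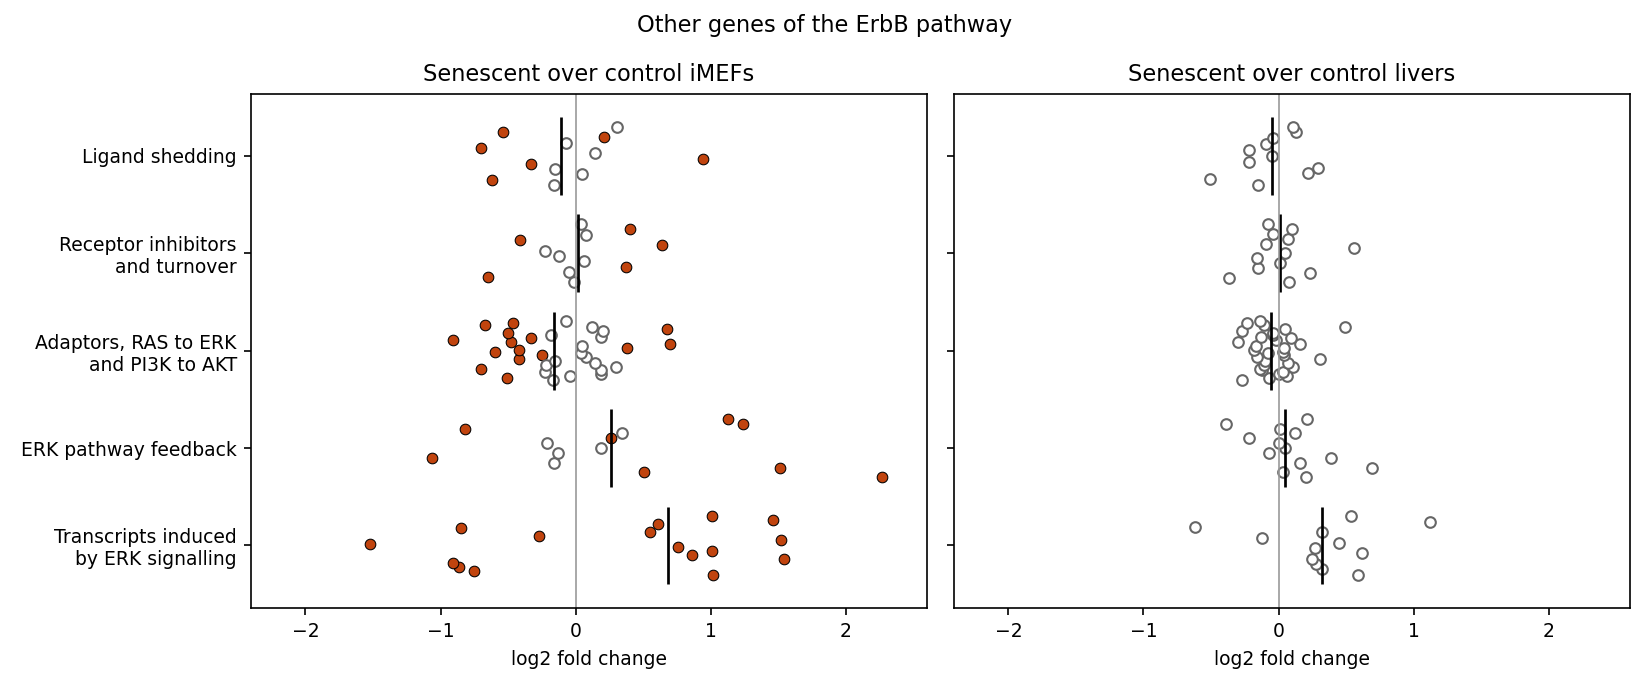
Log2 fold changes (horizontal axis) of the genes of 5 pathway lists, senescent over control iMEFs on the left and senescent over control livers on the right, with 1 point per gene, filled where called by edgeR, and a line at the median of each list. Filled points lie on both sides in iMEFs, with medians of 0.68 for transcripts induced by ERK signalling and -0.16 for adaptors, and none are filled in livers.

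Whether the change differed between livers and iMEFs was tested for the pathway genes by the interaction in a fit over all 14 libraries. Tissue, culture, immortalization, genotype, batch and time since induction cannot be told apart in this difference. Control livers had received Cre, whereas control iMEFs had vehicle. The log2 fold change of *Terf2* was -7.23 in iMEFs and -1.72 in livers. Genes named below were picked for a small p in iMEFs, which by itself favours a difference. Of 81 pathway genes tested in both tissues, 12 had a positive difference (livers minus iMEFs) and 8 a negative one. These 20 stand against 17.1% of all 11693 genes. The count depended on single libraries, and was 10 without control iMEFs replicate 1, 11 without control iMEFs replicate 2, and 13 without senescent iMEFs replicate 1 or replicate 2. *Dusp4* had a difference, livers minus iMEFs, of -2.07 (SE 0.33, adjusted p = 0.000412), *Spry2* of -1.62 (SE 0.33, adjusted p = 0.00316) and *Ptprj* of -0.72 (SE 0.16, adjusted p = 0.00508). *Pik3r2* had one of 0.90 (SE 0.13, adjusted p = 0.00017) and *Stat3* one of 0.56 (SE 0.16, adjusted p = 0.0204). That of *Pik3cb* was -0.54 (SE 0.16, adjusted p = 0.0297). It was lost without the filter on low counts (-0.53), and when any 1 of 7 libraries was left out. These were control iMEFs replicates 1 and 2, senescent iMEFs replicate 2, control livers replicates 2 and 3, and senescent livers replicates 2 and 4. For *Myc* the difference was -0.35 (SE 0.51, adjusted p = 0.689), and it was -1.2 and called without senescent livers replicate 3, the liver with the highest *Myc*. It was -0.82 for *Dusp6* (SE 0.29, adjusted p = 0.0605), and this was called by DESeq2 (-0.81), with the replicate number as a block (-0.83), and without control iMEFs replicate 3 (-0.97), control livers replicate 1 (-0.91) or 4 (-0.92), or senescent livers replicate 3 (-0.93).

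The genes whose pattern over the 8 livers was most like that of *Nrg1* were sought among all genes tested there, by the root mean square difference of centred log2 CPM. They were *Ddias* (0.39), *Atp8b5* (0.42), *Eda2r* (0.45), *Sec14l5* (0.49) and *Gm37795* (0.50), against a median of 1.43 over all genes. The spread of *Nrg1* over the 8 livers was itself 1.41, so a gene that did not change would lie near that median. *Eda2r* encodes a receptor of the TNF receptor family, and *Atp8b5* encodes a P4-type ATPase. *Eda2r* averaged 12.1 ± 3.75 CPM in senescent livers and 1.34 ± 0.413 CPM in control livers (SD, n = 4 each), and its log2 fold change was 3.16 (SE 0.30). *Ddias* averaged 8.35 ± 2.88 CPM in senescent livers and 1.08 ± 0.282 CPM in control livers, and *Atp8b5* 16.4 ± 1.93 CPM in senescent livers and 2.11 ± 0.371 CPM in control livers. The 4 of these genes that were tested in iMEFs were called higher there, as were 18.6% of all genes tested in iMEFs. Their log2 fold changes in iMEFs were 1.34 for *Ddias*, 2.30 for *Eda2r*, 2.96 for *Gm37795* and 4.48 for *Sec14l5*. Likeness in 8 libraries that fall into 2 groups mostly follows the groups, and no relation among these genes was tested.

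**Figure D5:**
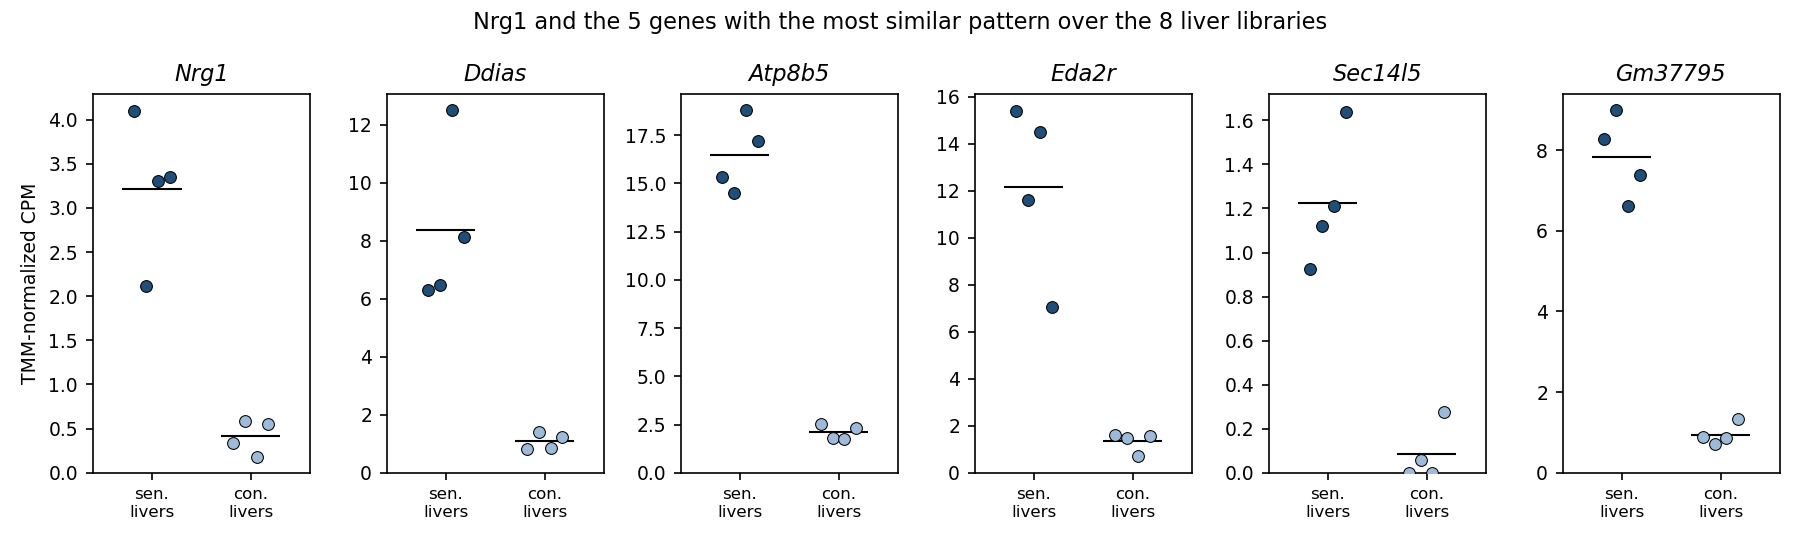
TMM-normalized CPM (linear axes from 0, a different scale per gene) of *Nrg1* and the 5 genes most like it in the 4 senescent livers (left in each panel) and the 4 control livers, with 1 point per library and a line at the mean. In each panel every senescent liver is above every control liver, from 2.11 CPM against 0.586 CPM for *Nrg1*.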

How the data were processed

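RNA-seq libraries of 3 senescent and 3 control iMEFs and of 4 senescent and 4 control livers were analysed. Novogene prepared, sequenced and aligned the libraries, and the replicates are called biological in the study's methods. The authors deposited raw counts of reads per gene, 1 table per tissue, made with STAR and featureCounts on mm10 according to the submitters' notes. No version, annotation release or strand setting is stated (not given in the sources used here). Normalized tables were not used, and 0 columns of per-sample values were left out.

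The members and gene lists were chosen with earlier results of these data known. Each contrast was fitted on the raw counts of all genes by the quasi-likelihood method of edgeR 4.0.16 (R 4.3.3) after filterByExpr and TMM scaling, with Benjamini-Hochberg adjustment over all genes tested and a threshold of 0.05. The interaction of condition and tissue was fitted over 14 libraries on genes tested in both tissues. A group with 0 reads was given a floor of 3 reads, and a group with 1 to 3 reads a ratio with an exact 95% interval, for counting error only. Exon lengths came from GENCODE M21 (GRCm38), since the tables hold none. *Nrdc* of the shedding list stands as *Nrd1* in the tables. Named are the members, *Terf2*, the rest of the family, from each other list the genes called in livers (at most 4) and the 3 called in iMEFs with the smallest p, and the 5 genes most like *Nrg1* in livers, by log2 CPM with a prior count of 2. Other genes named (*Dcn*, *Fn1*, *Spp1*, *Krt19*, *Krt7*, *Alb*, *Sox10*, *Adam17* and the genes that fell in the ERK lists) were chosen after their values were seen. Alternatives were DESeq2 1.42.0, limma-voom (limma 3.58.1), RLE factors, no filter, the replicate number as a block, TPM, and leaving out each library. Replicates of a group exceeded sampling noise, with a chi-square per degree of freedom of 4.25 to 39.8. The methods were tested on simulated data.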

Additional observations from a re-analysis of the deposited data

Results flagged for a closer look

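Over the genes named, 4 of 55 groups of 4 livers held a library far from the others, a flag that chance raises in about 1 group in 20. *Areg* was at 0.0608 CPM, which is 1 read, in control livers replicate 3 and at 0 in the other control livers. *Pik3r2* was at 32.9 CPM in senescent livers replicate 1, against 27.5 to 28.2 CPM in the other senescent livers. *Dusp4* was at 1.85 CPM in senescent livers replicate 2, against 1.27 to 1.33 CPM in the others. *Myc* was at 28.0 CPM in senescent livers replicate 3, against 5.56 to 7.40 CPM in the others.

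The change differed between livers and iMEFs, by the test of the interaction, for 6 named pathway genes. They were named for a small p in iMEFs, which by itself favours such a difference. Tissue, time since induction and the extent of *Terf2* loss cannot be told apart in it. The difference, livers minus iMEFs on the log2 scale, was -0.72 for *Ptprj*, 0.90 for *Pik3r2*, 0.56 for *Stat3*, -0.54 for *Pik3cb*, -2.07 for *Dusp4* and -1.62 for *Spry2*. That of *Pik3cb* was lost without the filter on low counts and on leaving out any of several single libraries.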

How the results depend on the processing

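The members called numbered 5 in iMEFs and 1 in livers under DESeq2, limma-voom, RLE factors, no filter and the replicate block. Leaving out each library in turn gave 4 to 5 members in iMEFs, 1 in livers and 10 in control livers against control iMEFs, where library totals alone gave 9. The 1 in livers is *Nrg1*, by which the group was chosen, and the 10 include it. Of all genes, edgeR called 39.8% in iMEFs, 0.343% in livers and 85.5% between the control groups, and 17.1% by the interaction. The genes called in livers were 49 by edgeR, 139 by DESeq2 and 130 without the filter. Over all alternatives no log2 fold change of a called member turned its sign. Of the other pathway genes, 45 to 58 were called in iMEFs and 0 in livers on leaving out a library, and 1 in livers without the filter. The genes that differed between tissues numbered 20, and 10 to 23 on leaving out a library. Without control iMEFs replicate 1 there were 10, without control iMEFs replicate 2 there were 11, and without senescent iMEFs replicate 1 or 2 there were 13; the cause was not tested. Correlations of deviations between same-numbered samples were -0.171 to -0.005 in iMEFs and -0.083 to 0.237 in livers. Between samples of different number they were -0.134 to 0.163 in iMEFs and -0.129 to 0.083 in livers. With so few libraries these values cannot decide whether the replicate numbers pair the samples. With the replicate block 47 other pathway genes were called in iMEFs. By TPM the ranks of *Hbegf* and *Erbb2* in senescent livers changed places. Without senescent livers replicate 3, the difference between tissues for *Myc* was called, at -1.2. Depth limits *Areg* and *Ereg* in livers and *Btc* in iMEFs, which were too low to be tested.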
